A study of Danio rerio with 8 samples.

Results

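The Hox cluster genes were followed in GFP-positive cells sorted from zebrafish larvae. They were taken as every row of the count table whose gene name begins with hox, a cluster letter from a to d and a digit, which gave 48 of 32520 genes. Transcripts of genes from both ends of the clusters were present together in all 8 libraries, with hoxb4a the highest member per length in 8 of 8 libraries and the genes of paralog group 13 contributing 17.3% ± 1.17 (SD, n = 8) of the summed level per length. Without division by length hoxb3a was the highest in 8 of 8 libraries, and group 13 contributed 10.987%. Of 35 Hox genes tested 0 were called between the morpholino groups, against 0.09% of all genes tested. The shares of anterior, central and posterior genes differed between the groups by less than the spread between libraries.

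Hox genes encode homeodomain transcription factors that give cells their position along the head-to-tail axis. They lie in clusters, and the order of the genes within a cluster matches the order of their expression along the body: low-numbered paralog groups begin in the hindbrain and pharyngeal arches, and high-numbered groups begin in the tail, the hindgut and the outer parts of the fins. The set of Hox genes that a cell transcribes is therefore read as a position code, and cells of the forebrain, the midbrain and the first pharyngeal arch carry none. Teleosts kept duplicated clusters after a whole-genome duplication, and the last letter of a zebrafish Hox name (a or b) gives the copy.

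All larvae carried the transgene Tg(fli1:EGFP)y1 in a background whose genotype is labelled wt, and cells were collected at 96 hours post fertilization from pools of 60 to 80 larvae. Controls had received a standard control morpholino, an antisense oligomer, and the other group an equimolar morpholino against exon-intron junction 10 of hpse2, the gene of heparanase 2. The fli1 promoter of this line is known to label blood vessel endothelium and also neural crest cells of the pharyngeal arches, so the sorted cells are a mixture, although the labels call them endothelium. Each group had 4 libraries, made of 2 biological replicates with 2 libraries each (1_1, 1_2, 2_1 and 2_2), and the second group is called LOF-labelled after its label of loss of function.

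Total counts ran from 5048839 in control 1_2 to 11344918 in control 2_2. The 2 libraries of a biological replicate were not independent (correlation 0.50 in a fit with biological replicate as a random effect), and whether they came from separate pools is not given in the sources used here, so p-values may in part measure technical spread. The count of hpse2 was not lower under the LOF label, at 28.5 ± 5.78 CPM in controls and 65.8 ± 20.3 CPM in LOF-labelled libraries (mean ± SD, n = 4), so it gives no check of the label; CPM stands for counts per library size after TMM scaling, on the usual CPM scale. The main axis of variation, 40.3% of the variance with or without the Hox genes, crossed the groups. On one side lay biological replicate 1 of the controls and biological replicate 2 of the LOF-labelled group, called the first library set, and on the other side the remaining 4 libraries, called the second set. No label names these sets. Endothelial markers were present throughout: 14 of them summed to 805.7 to 825.05 CPM in the first set and to 999.21 to 1075.5 CPM in the second. Fli1a was by far the largest member (means of 436 and 521 CPM in the first and second set). Only fli1b went the other way (104 and 73.1 CPM). All other members also had higher means in the second set, among them kdrl (40.5 and 78.0 CPM), cdh5 (26.2 and 47.0) and stab2 (5.23 and 13.9). The sum is weighted by fli1a and does not give the size of the difference in the other members. Kdrl was at 57.3 ± 23.0 CPM in controls and 61.3 ± 23.4 CPM in LOF-labelled libraries. Neural crest and cartilage markers (11 genes, most of the sum from cartilage matrix genes such as col2a1a) lay far above the endothelial sum. They summed to 16858 to 21718 CPM in controls and 10022 to 13338 CPM in LOF-labelled libraries. Dlx2a (means of 146 and 147 CPM) and barx1 (197 and 224) were not lower in the LOF-labelled libraries, while the other members had lower means.

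Of the 48 Hox genes, 35 had enough counts for the group test and 13 did not. The tested members had summed counts over the 8 libraries from 96 (hoxc9a) to 13113 (hoxb3a). The untested members were hoxb1a (6 counts in all), hoxb1b (6), hoxb5b (15), hoxb6b (1), hoxc6b (66), hoxb7a (62), hoxb8b (2), hoxa9a (69), hoxc10a (29), hoxa11a (32), hoxc11a (38), hoxc11b (33) and hoxc12b (61). At these depths their levels are uncertain, and a low count does not show that a gene was silent. Among them, hoxc10a was higher and hoxc12b lower in every LOF-labelled library than in every control. Neither was tested, and the share of such separation over all untested genes was not computed. In all, 42 members had at least 1 count in every library.

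Several annotated Hox rows lie on top of each other, and neither the rule for shared reads nor the use of strand is given in the sources used here. In the GRCz11 coordinates of the table, the row of hoxb3a (chromosome 3, 23697997 to 23771945, forward strand) covers hoxb1a, hoxb2a, hoxb4a, hoxb5a and hoxb6a. The row of hoxc3a (chromosome 23, 36087219 to 36149371) covers hoxc4a, hoxc5a, hoxc6a, hoxc8a and hoxc9a, and that of hoxc10a (35969228 to 36086895) covers hoxc11a, hoxc12a and hoxc13a. In all, 20 members overlapped another Hox row and 25 a row on the other strand, so the split of counts between these genes is uncertain. The row named hoxa4a (chromosome 19, 19754950 to 19780245) covers hoxa5a, and the protein match in its deposited description is Hox-A3a. Hoxa3a was not analysed under its own name, so it is open to doubt whether the reads of this row belong to group 3 or 4.

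For comparison between genes, levels were expressed as CPM per kilobase, the CPM divided by the gene length given in the table. The 48 genes summed to 297.91, 246.91, 369.34 and 349.08 CPM per kilobase across controls 1_1, 1_2, 2_1 and 2_2. The LOF-labelled libraries, listed likewise, reached 447.64, 397.2, 273.92 and 275.3. The 4 libraries of the second set were the 4 highest, and the groups overlapped, with means of 316 ± 54.9 in controls and 349 ± 87.8 in LOF-labelled libraries (SD, n = 4). These are bulk samples, in which fewer cells of a type and less RNA per cell cannot be told apart.

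Grouped by position, anterior genes (paralog groups 1 to 4) made up 50.1% ± 4.11 of the summed level in controls and 50.1% ± 2.08 in LOF-labelled libraries (SD, n = 4). Central genes (groups 5 to 8) made up 19.2% ± 2.45 and 19.1% ± 0.996, and posterior genes (groups 9 to 13) 30.7% ± 1.76 and 30.9% ± 1.74, in the same order. All 3 shares differed between the groups by less than 1 SD. The shares depend on the length division, because some anterior rows are long (6575 bases for hoxb3a and 5234 for hoxa4a): on CPM without it, anterior genes held 68.9%, central genes 11.3% and posterior genes 19.8%.

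**Figure D1:**
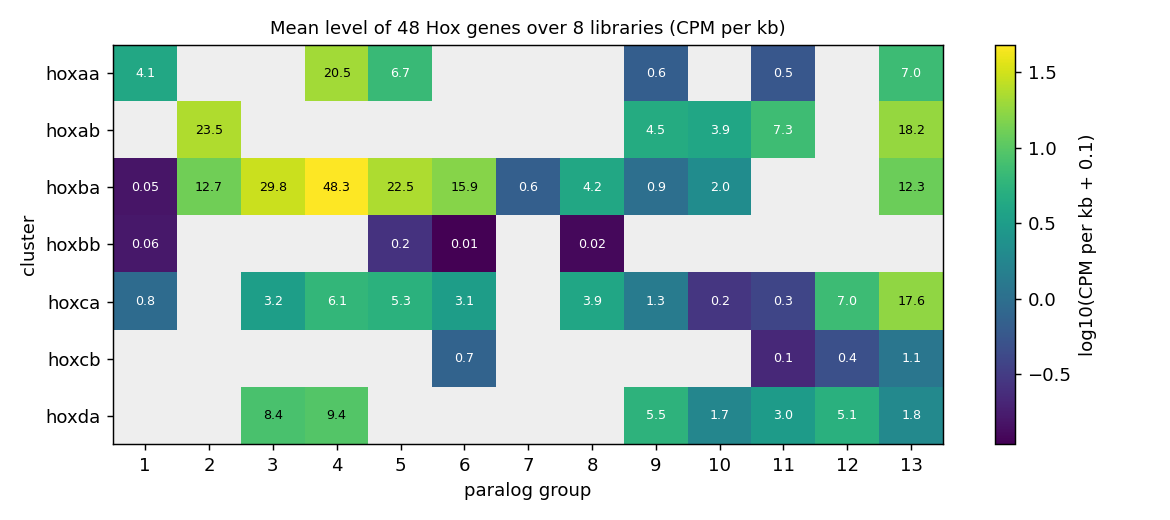
Mean level of the 48 Hox genes over the 8 libraries in CPM per kilobase, printed in each cell and coloured by log10 after addition of a small constant, by paralog group (horizontal axis) and cluster (vertical axis, 7 clusters); grey positions hold no gene of the table. The ba cluster has its highest level at hoxb4a (48.3), group 7 holds only hoxb7a at a low level, and in group 13 the aa, ab, ba and ca clusters stand above their groups 9 to 11.

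Per kilobase, and with each row in the group of its name, the sums over paralog groups were highest at groups 4 and 13 and lowest at group 7. In CPM without length division group 3 led with 31.5% of the sum and group 4 followed with 26.6%, while group 13 held 10.987% and group 7 was again the lowest. Group 4 reached 79.0 ± 19.5 CPM per kilobase in controls and 89.6 ± 23.6 in LOF-labelled libraries, and group 13 reached 52.8 ± 7.56 and 63.1 ± 20.2. Group 7, which holds hoxb7a alone, was at 0.732 ± 0.461 and 0.456 ± 0.341. Between these lay group 3 (40.6 ± 9.48 and 42.2 ± 9.36), group 2 (35.9 ± 9.2 and 36.5 ± 9.01), group 5 (33.1 ± 1.69 and 36.3 ± 8.49) and group 6 (18.1 ± 4.7 and 21.3 ± 5.93). Groups 9 to 12 each stayed between 7.5 and 13.6 in the group means, well under group 13. The groups of libraries overlapped in all of these sums. With the hoxa4a row counted in group 3 in place of 4, an alternative chosen after the data were seen, group 4 held 19.1% of the summed level in place of 25.2%, and group 3 held 18.6% in place of 12.5%, above group 13.

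**Figure D2:**
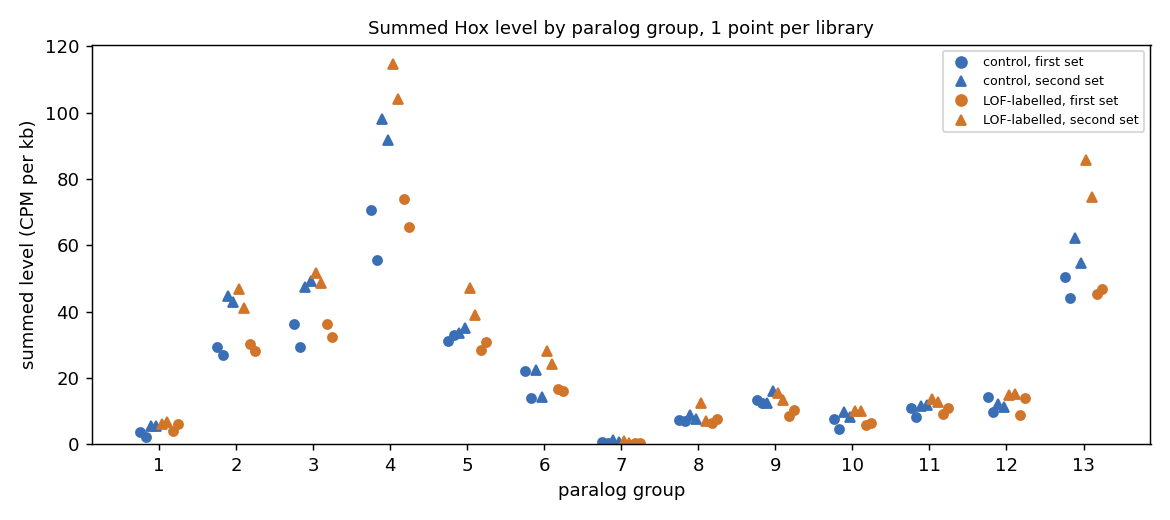
Summed level in CPM per kilobase (vertical axis) by paralog group, 1 to 13 (horizontal axis), with 1 point per library; colour gives the morpholino group and marker shape the library set. On this scale, with the hoxa4a row in group 4, the highest sums are at groups 4 and 13. Without length division group 3 leads, at 31.5% of the sum. Group 7 is near 0, and controls and LOF-labelled libraries overlap.

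Among the 7 clusters, the ba cluster on chromosome 3 held 44.8% ± 1.13 of the summed level (mean ± SD, n = 8), followed by the ab cluster on chromosome 16 (17.2%), the ca cluster on chromosome 23 (14.8%), the aa cluster on chromosome 19 (11.8%) and the da cluster on chromosome 9 (10.6%). The cb cluster on chromosome 11 held 0.672% and the bb cluster on chromosome 12 held 0.0835%. This order, too, depends on length: in CPM without the division the shares were 49.1% for ba, 17.5% for aa, 13.3% for ab, 9.78% for da, 9.16% for ca, 1.02% for cb and 0.0578% for bb. Along the ba cluster the level per kilobase was higher at each step from hoxb2a to hoxb3a to hoxb4a and lower at each step through hoxb5a and hoxb6a to hoxb7a, in 8 of 8 libraries. The step from hoxb3a to hoxb4a turns round without length division, where hoxb4a was above hoxb3a in 0 of 8 libraries, and the row of hoxb3a is the one that covers its neighbours. Of the duplicated genes, hoxb5a, hoxb6a, hoxb8a, hoxc6a, hoxc12a and hoxc13a were above their b copies per kilobase in 8 of 8 libraries, and in CPM as well except hoxc6a, in 7 of 8. Hoxc11a was above hoxc11b in 8 of 8 libraries per kilobase but in 5 of 8 in CPM, at low counts, so their order is uncertain. The Hoxa copies went the other way, with hoxa9b, hoxa11b and hoxa13b above their a copies in 8 of 8 libraries on both scales.

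Group 13 stood above the neighbouring posterior genes of its own cluster in most cases. Of 14 pairs of a group 13 gene with a gene of groups 9 to 11 in the same cluster, the group 13 gene was higher in all 8 libraries in 11, both per kilobase and in CPM. The other 3 pairs were those of hoxd13a, which per kilobase was below hoxd9a and hoxd11a in all 8 libraries and above hoxd10a in 4. Group 12, the nearest, was not among these pairs. Hoxc13a and hoxc13b were above hoxc12a and hoxc12b in 8 of 8 libraries, and hoxd13a was above hoxd12a in 0 of 8, on both scales. The order of the 48 genes was alike between libraries, with Spearman correlations of 0.958 to 0.986 over the 28 pairs of libraries. These are correlations across genes, which share annotation and length and are not independent replicates.

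The genes of group 1, which act in the hindbrain, were low. Hoxa1a was at 4.42, 2.10, 6.14 and 6.63 CPM in controls 1_1, 1_2, 2_1 and 2_2 (the order used from here on) and at 7.59, 8.42, 4.24 and 7.40 CPM in the LOF-labelled libraries. The groups overlapped, and the log2 fold change (LOF-labelled minus control) was 0.48 (SE 0.33, adjusted p = 0.881, edgeR's quasi-likelihood test over all genes). Hoxc1a was at 6.34, 4.83, 6.64 and 5.68 CPM in controls and 7.59, 7.80, 6.89 and 8.61 CPM in LOF-labelled libraries. Here every LOF-labelled library lay above every control, alone among the 35 tested members. Its log2 fold change of 0.39 (SE 0.18) did not pass the edgeR test over all genes (p = 0.0606, adjusted p = 0.810), and the exact two-sided permutation p was 0.0286, the smallest that 4 against 4 libraries can give. That permutation takes the libraries of a biological replicate as independent, which they were not. Of all 15559 genes tested, 4.65% had groups that did not overlap, 2.03% with the LOF-labelled libraries higher and 2.62% with them lower, so 1 of 35 members (2.86%) is near the background.

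Group 2 genes act in the second pharyngeal arch, where Hoxa2 is known to set the identity of neural crest skeleton. Hoxa2b (chromosome 16, 20926673 to 20929183) was at 37.6, 36.6, 57.6 and 54.1 CPM in controls and 56.1, 52.8, 33.3 and 32.0 CPM in LOF-labelled libraries. It was high in the 4 libraries of the second set and low in the 4 of the first, whatever the group, with group means of 46.5 ± 10.97 and 43.6 ± 12.7 CPM and a log2 fold change of -0.097 (SE 0.22, edgeR adjusted p = 0.977). Hoxb2a was at 17.8, 14.1, 26.9 and 26.7 CPM in controls and 32.2, 24.7, 23.3 and 20.6 CPM in LOF-labelled libraries, again with the second set above the first. Per kilobase, hoxa2b averaged 23.5 ± 5.80 and hoxb2a 12.7 ± 3.12 over the 8 libraries. A pseudogene row between hoxa4a and hoxa1a, CR382300.1 (chromosome 19, 19782413 to 19783624), whose best protein match in the table is Hox-A2b, had 130 to 379 counts per library and 31.7 ± 6.18 CPM in controls and 31.7 ± 7.31 in LOF-labelled libraries. It is no member by name.

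Group 3 and 4 genes mark the posterior arches, the caudal hindbrain and the anterior trunk. Hoxb3a was at 168, 153, 225 and 236 CPM in controls and 239, 219.7, 174 and 152 CPM in LOF-labelled libraries, with no visible shift between the groups (log2 fold change 0.0010, SE 0.18, edgeR adjusted p = 0.999). Hoxd3a was at 24.2, 13.03, 30.2 and 31.8 CPM in controls and 35.3, 36.0, 20.7 and 22.1 CPM in LOF-labelled libraries. In both genes the second set lay above the first, and the groups overlapped.

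Hoxb4a (chromosome 3, 23710839 to 23723982), the leading member, averaged 48.3 ± 12.8 CPM per kilobase over the 8 libraries, above 90.3% of the genes tested. Its level was 50.7, 44.8, 74.3 and 68.6 CPM in controls and 92.3, 81.2, 52.5 and 51.4 CPM in LOF-labelled libraries. The 2 highest values were those of LOF-labelled 1_1 and 1_2 and the lowest was control 1_2, and the log2 fold change was 0.22 (SE 0.23, edgeR adjusted p = 0.936). The hoxa4a row was at 87.4, 69.5, 126 and 124 CPM in controls and 140.5, 136, 93.4 and 82.3 CPM in LOF-labelled libraries. Hoxd4a was at 19.4, 14.5, 28.8 and 24.9 CPM in controls and 28.4, 24.2, 16.8 and 15.5 CPM in LOF-labelled libraries. All 3 of these rows were higher in the second set than in the first without overlap, and their fold changes between the groups, 0.15 for hoxa4a (SE 0.23) and -0.053 for hoxd4a (SE 0.24), were within 1 SE of 0.

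**Figure D3:**
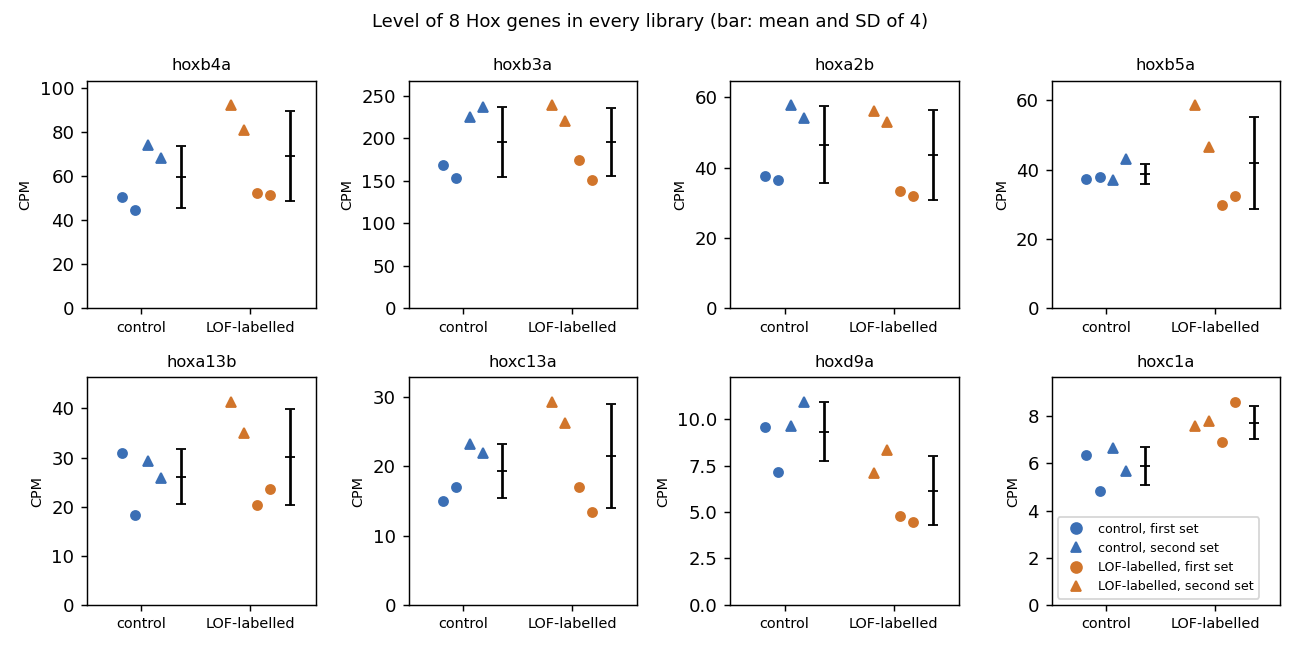
Level in CPM of 8 Hox genes in every library, 1 panel per gene, each vertical axis from 0; colour gives the morpholino group, marker shape the library set, and black bars the mean and SD of 4 libraries. In hoxb4a, hoxb3a, hoxa2b and hoxc13a every library of the second set lies above every library of the first, and only in hoxc1a do the morpholino groups not overlap.

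The central genes, known from the trunk, were led by hoxb5a. It was at 37.4, 37.8, 37.0 and 43.0 CPM in controls and at 58.5, 46.5, 29.9 and 32.6 CPM in LOF-labelled libraries. The controls were close together and the LOF-labelled libraries lay on both sides of them, and the log2 difference between the groups was -0.27 within the first set and 0.39 within the second. Hoxb6a was at 18.1, 9.87, 18.4 and 11.6 CPM in controls and 23.6, 19.3, 12.9 and 11.98 CPM in LOF-labelled libraries, without a split by set. Hoxb8a, the highest of group 8 in CPM per kilobase, was at 5.02, 6.51, 9.90 and 8.18 CPM in controls and 11.9, 7.28, 6.49 and 5.25 CPM in LOF-labelled libraries. Fold changes were 0.11 for hoxb5a (SE 0.19), 0.22 for hoxb6a (SE 0.27) and 0.056 for hoxb8a (SE 0.29), none past the edgeR test.

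Group 9 to 12 genes pattern the posterior trunk and, in the Hoxa and Hoxd clusters, the paired fins. Hoxd9a (chromosome 9, 1964005 to 1965727, reverse strand) was at 9.57, 7.14, 9.65 and 10.9 CPM in controls and at 7.08, 8.32, 4.77 and 4.44 CPM in LOF-labelled libraries. LOF-labelled 2_1 and 2_2 were the 2 lowest, and only LOF-labelled 1_2 lay above a control. It had the smallest p of the members (p = 0.0289, adjusted p = 0.715, log2 fold change -0.60, SE 0.24, edgeR), and the exact two-sided permutation p was 0.0571. Within the first set it differed by -0.81, and within the second by -0.41 (log2, LOF-labelled minus control). Over all genes tested 6.29% had an unadjusted p under 0.05 and 3.33% were also lower, against 1 of 35 members (2.86%).

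Hoxa10b, the most abundant tested member of group 10 in CPM per kilobase, was at 6.22, 4.2, 9.77 and 6.37 CPM in controls and 6.95, 7.80, 4.37 and 5.92 CPM in LOF-labelled libraries. Hoxa11b was at 13.3, 9.24, 15.8 and 14.8 CPM in controls and 18.0, 16.2, 10.3 and 11.6 CPM in LOF-labelled libraries. Both were higher in the second set than in the first without overlap. Hoxc12a was at 6.94, 4.62, 4.38 and 4.91 CPM in controls and 8.22, 7.69, 3.71 and 5.92 CPM in LOF-labelled libraries, and neither the groups nor the sets separated it. Fold changes were -0.095 for hoxa10b (SE 0.28), 0.068 for hoxa11b (SE 0.22) and 0.29 for hoxc12a (SE 0.28).

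Group 13 genes mark the tail end of the axis, the hindgut and the outer parts of the fins. Hoxa13b (chromosome 16, 20895904 to 20897836) was at 31.0, 18.3, 29.2 and 25.8 CPM in controls and 41.3, 35.04, 20.4 and 23.5 CPM in LOF-labelled libraries. Hoxb13a was at 12.7, 12.6, 14.03 and 12.7 CPM in controls and 21.4, 17.3, 11.9 and 12.8 CPM in LOF-labelled libraries. Hoxc13a was at 15.1, 17.0, 23.3 and 21.9 CPM in controls and 29.3, 26.2, 17.0 and 13.5 CPM in LOF-labelled libraries. In all 3 the 2 highest libraries were LOF-labelled 1_1 and 1_2 while LOF-labelled 2_1 and 2_2 lay among the controls or below them.

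All 6 tested genes of group 13 had a log2 fold change above 0, from 0.15 (hoxc13a) to 0.59 (hoxd13a). Of all tested Hox genes 82.9% were above 0, and of all genes tested 50.3%. None of the 6 passed the test (smallest adjusted p = 0.813, edgeR). In the second set all 6 genes of group 13 were above 0, by 0.29 to 0.67. In the first set 2 of them were, with a range of -0.12 to 0.67. The median over all tested Hox genes was also higher in the second set (0.21) than in the first (-0.0068), so this was not particular to group 13. The share of all genes above 0 within each set was not computed, so these counts are no test. As a share of the summed Hox level group 13 was 16.8% ± 0.897 in controls and 17.9% ± 1.29 in LOF-labelled libraries (SD, n = 4), a difference under the larger SD. These shares are per kilobase.

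Taken over the whole cluster set, edgeR called 0 of 35 Hox genes between the groups at an adjusted p under 0.05, against 14 of 15559 genes tested (0.09%). At an unadjusted p under 0.05 it found 1 of 35, and DESeq2 also called none. With the library sets as a block, 4 of 35 (hoxa1a, hoxb4a, hoxd9a and hoxa13a) had an unadjusted p under 0.05. Of these 0 were called, with a smallest edgeR adjusted p of 0.0871, and over all genes that block called 396. The share of all genes at an unadjusted p under 0.05 with that block was not computed, so the 4 cannot be set against a background. The sets were also drawn from these same libraries. In simulated counts (15320 genes tested), edgeR found 51% of 100 genes with a true 2-fold change and 90% of 100 with a 4-fold change, so changes of 2-fold could be missed. The simulated libraries were drawn independently, unlike the libraries of a biological replicate here, so these percentages need not hold for the data. Fold changes were above 0 in 29 members and below 0 in 6, which is 82.9% above 0 against 50.3% of all genes tested. Their median was 0.19 on the log2 scale against 0.0017 over all genes tested. Members share the same libraries, and some of their rows overlap and may share reads, so these counts are no test.

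By position, 9 of 11 tested anterior genes, 7 of 7 central genes and 13 of 17 posterior genes had a fold change above 0, with medians of 0.19, 0.13 and 0.24. The 16 tested members without a value of their own here had fold changes from -0.16 to 0.59 and no adjusted p under 0.813. The median did not hold within both library sets: it was -0.0068 within the first and 0.21 within the second, against 0.0058 and -0.0063 over all genes tested. Of the 35 members, 15 were above 0 in both sets and 4 below 0 in both. Each set holds 1 biological replicate of each group, and the share over all genes was not computed. These counts therefore do not show that a difference was repeated. Leaving out LOF-labelled 1_1 brought the median to 0.050 and leaving out LOF-labelled 2_2 brought it to 0.29, and no member was called in either case.

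**Figure D4:**
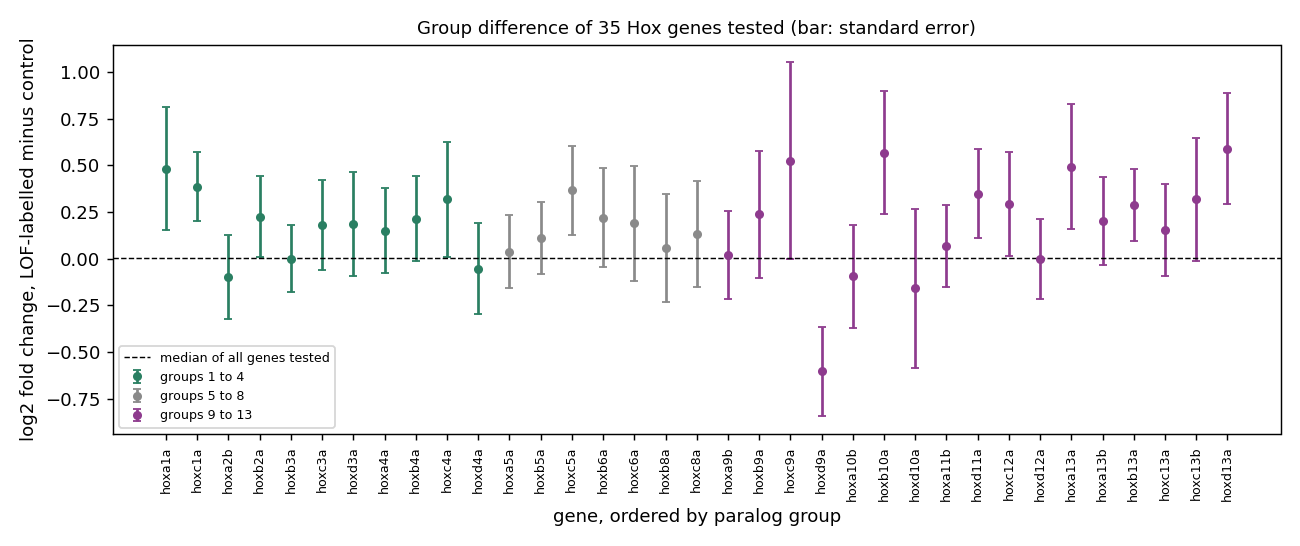
Log2 fold change (LOF-labelled minus control) of the 35 tested Hox genes, ordered by paralog group and coloured by region, with bars of 1 SE from edgeR; the dashed line is the median of all genes tested. Most points lie above the line with SEs from 0.18 to 0.53, none was called, and hoxd9a at -0.60 is the lowest.

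**Figure D5:**
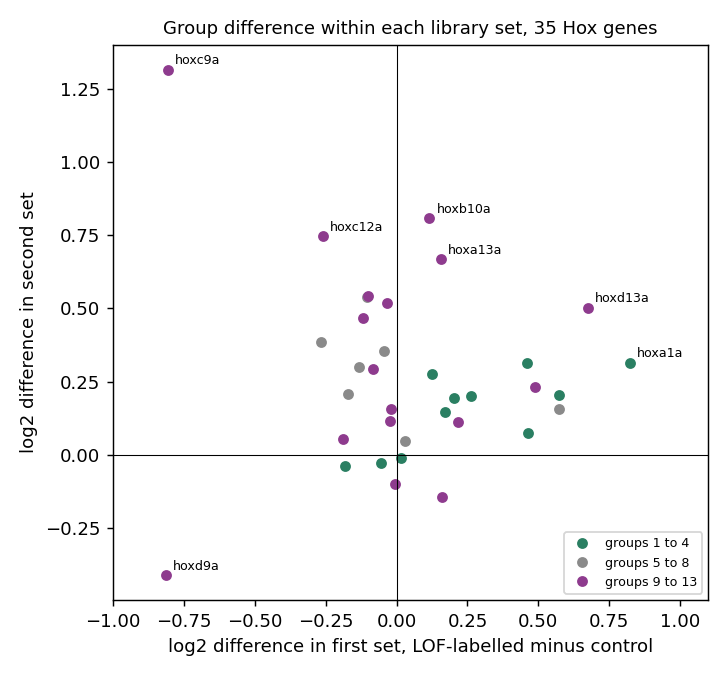
Log2 difference (LOF-labelled minus control) of the 35 tested Hox genes within the first library set (horizontal axis) and within the second (vertical axis), 1 point per gene, coloured by region. The upper right of the plot holds the 15 genes above 0 in both sets, hoxd9a lies lowest in both, and hoxc9a, the tested member with the fewest counts (96), differs most between the sets.

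More Hox genes were separated by library set than by morpholino group. In 14 of 35 members (40%) all 4 libraries of the second set lay above all 4 of the first, against 13.1% of all genes tested, and in 0 members all lay below, against 14.2%. The difference between the sets was above 0 in 32 members and below 0 in 3, which is 91.4% above 0 against 51.8% of all genes, with a median of 0.51 against 0.017 (log2 CPM, second minus first). The sets were drawn from these same libraries, so these values are a description with no test. The 14 genes were hoxa2b, hoxb2a, hoxb3a, hoxd3a, hoxa4a, hoxb4a, hoxd4a, hoxb8a, hoxa10b, hoxb10a, hoxa11b, hoxa13a, hoxc13a and hoxc13b, with differences from 0.51 (hoxb3a) to 0.93 (hoxa13a).

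By region, all 11 tested anterior genes were higher in the second set (median 0.66, 7 without overlap), as were 5 of 7 central genes (median 0.22, 1 without overlap) and 16 of 17 posterior genes (median 0.50, 6 without overlap). The sum of group 4 ran from 55.7 to 74.0 CPM per kilobase in the first set and from 91.6 to 115 in the second, and that of group 13 from 44.0 to 50.5 and from 54.6 to 85.7. Summed markers of several cell types also differed between the sets. Anterior head factors (10 genes) summed to 134.88 to 141.01 CPM in the first set and 208.15 to 231.75 in the second. Most of that difference was emx2 (means of 99.4 and 166 CPM). Lhx2b (15.6 and 23.9) and foxg1a (7.67 and 12.1) were also higher in the second set. Otx2b (4.56 and 4.93) and six3b (5.88 and 6.28) were close, and otx1 was lower in the second set (3.37 and 2.88). The sum therefore does not speak for the whole list. The sum of erythrocyte markers was lower in the second set (1146.7 to 1672.5 and 404.77 to 445.87 CPM), as were those of photoreceptor markers (241.38 to 773.87 and 80.919 to 122.17 CPM) and of blood progenitor markers (321.7 to 386.15 and 217.2 to 295.7 CPM). The part of these cell types in the Hox differences was not tested.

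For hindbrain and spinal neurons, a cell type that carries Hox codes in abundance, 8 marker rows were summed. The sum was 43.998 to 66.97 CPM in the first set and 29.944 to 38.962 in the second. Mnx1 and mnx2a were at 0 in all libraries. The members went different ways: phox2a (means of 20.3 and 5.43 CPM) and phox2bb (16.7 and 6.54) were lower in the second set, and isl2a (10.9 and 17.1) was higher. General neuronal markers (13 genes) summed to 332.49 to 455.04 CPM in controls and 300.69 to 322.65 in LOF-labelled libraries, without overlap. Of 12 tested genes 1 was above 0, 11 below and 0 called, against 50.3% above 0 of all genes tested. The part of neurons in the Hox levels was not tested. Posterior Hox genes act in the pectoral fin and fin fold. Markers of these parts summed to 961.3 to 1144 CPM in controls and 918.39 to 1486.1 in LOF-labelled libraries. Of 8 tested genes 6 were above 0, 2 below and 0 called, against 50.3% above 0 of all genes tested. Between the library sets the fin sums overlapped (918.39 to 1144 CPM in the first and 961.3 to 1486.1 in the second). Hand2 (means of 185 and 274 CPM), lmx1bb (46.1 and 72.1) and lmx1ba (8.67 and 19.2) were higher in the second set. Tbx5a (24.9 and 26.4) and fgf24 (21.7 and 24.0) were close. Fibroblast markers (9 genes) summed to 32302 to 38451 CPM in controls and 37272 to 45599 in LOF-labelled libraries. The remaining marker sums over the 8 libraries were 60.817 to 1638.8 CPM for skeletal muscle, 499.18 to 1034.3 for neutrophils and macrophages, 86.298 to 108.11 for epidermis and 4.5747 to 8.2685 for kidney and mesothelium. In the neural crest and cartilage list 3 of 11 tested genes were called, all lower in the LOF-labelled libraries. They were the cartilage matrix genes acana and matn1 and the neural crest factor sox10. Over all genes tested 14 of 15559 (0.09%) were called. In none of the other marker lists was a gene called.

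Genes that work with Hox proteins were well expressed. TALE homeodomain proteins (pbx, meis and pknox) bind DNA as partners of Hox proteins, and their 14 rows summed to 1679.7 to 2013.5 CPM in controls and 1851.8 to 2157.9 in LOF-labelled libraries. Meis1b led with 508 ± 56.1 and 535 ± 53.6 CPM, followed by pbx4 with 457 ± 18.3 and 472 ± 30.8 CPM. Of 13 tested, 12 were above 0 and 1 below, against 50.3% above 0 of all genes tested. In this list 0 were called, and its median was 0.077, against 0.0017 over all genes tested. Its genes share the same libraries, so these counts are no test. The smallest p values were those of a row named meis2a (log2 fold change 0.14, SE 0.084, edgeR adjusted p = 0.852) and pbx1b (0.16, SE 0.11, edgeR adjusted p = 0.873). A further row of the name meis2a had a log2 fold change of 0.20 (SE 0.15, edgeR adjusted p = 0.894).

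Retinoic acid, made by aldehyde dehydrogenases and degraded by Cyp26 enzymes, induces anterior Hox genes in the embryo. Of its 23 genes, all tested, 16 were above 0, 7 below and 0 called, against 50.3% above 0 of all genes tested. The median of the 23 was 0.14, against 0.0017 over all genes tested. The receptor gene rarga led with 886 ± 28.9 CPM in controls and 858 ± 92.4 in LOF-labelled libraries, followed by cyp26b1 with 449.7 ± 48.3 and 536 ± 12.9 CPM. Cyp26b1 had the smallest p of the list (log2 fold change 0.25, SE 0.099, edgeR adjusted p = 0.705), followed by crabp1b, a retinoic acid binding protein gene (0.27, SE 0.14, edgeR adjusted p = 0.813).

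Polycomb proteins keep Hox genes silent and trithorax proteins keep them active. Of 21 tested genes of these complexes 10 were above 0, 11 below and 0 called, with a median of -0.017. The H3K27 demethylase genes kdm6bb (268 ± 24.3 and 282 ± 16.4 CPM) and kdm6ba (182 ± 17.5 and 188 ± 37.0 CPM) led. The smallest p values belonged to the trithorax genes kmt2a, at 80.2 ± 9.61 CPM in controls and 100.2 ± 9.83 in LOF-labelled libraries (log2 fold change 0.32, SE 0.11, edgeR adjusted p = 0.623), and kmt2ba (0.26, SE 0.12, edgeR adjusted p = 0.795).

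Other axial regulators were few. Of the 8 hindbrain and axial genes 4 were tested, 2 above 0 and 2 below, with 0 called. Mafba, which acts in the hindbrain upstream of group 3 Hox genes and also in other tissues, was at 142 ± 15.1 and 136 ± 6.53 CPM, and hnf1ba and gbx2 were at 0. Egr2a and egr2b, which drive group 2 genes in the hindbrain, were at 23.2 ± 4.04 and 25.2 ± 2.55 CPM and at 14.3 ± 8.93 and 10.6 ± 3.03 CPM. The cdx, evx and ParaHox genes, relatives and regulators of the posterior clusters, summed to 0.37584 to 4.3669 CPM per library over 9 rows, too low to test, with gsx1 (64 counts in all) and evx2 (42) the highest. Of the miRNA genes within the Hox clusters 9 rows were in the table, 5 of them at 0, mir10c (4 counts in all) and mir196d (2) were the highest, and their sum was at most 0.41589 CPM in any library, in data made from polyadenylated RNA.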

How the data were processed

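RNA-seq of polyadenylated RNA was used for 8 libraries of sorted cells. The deposited table holds raw counts per gene, with gene length and coordinates; coordinates are those of GRCz11, per the submitters' processing notes. Aligner, counting tool and strand setting: not given in the sources used here. All sample columns were assigned through the labels (0 left unassigned).

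Genes were filtered with filterByExpr (15559 kept), scaled by TMM and compared with edgeR 4.0.16 (R 4.3.3, robust quasi-likelihood, no block, Benjamini-Hochberg adjustment over all genes tested, adjusted p under 0.05). An SE is the absolute log2 fold change over the square root of F, and a prior count of 2 was added for log2 CPM. Exact permutation tests used 70 arrangements of single libraries, with those of a biological replicate taken as independent. The edgeR test was checked on simulated data.

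Members, lists and tests were chosen with earlier results of these data known. Values per library are given for the 12 members with the highest level per kilobase and the leading tested member of each paralog group. They are also given for tested members at an unadjusted p under 0.05 or with groups that did not overlap. From the 6 lists of regulators and cofactors the 2 highest genes are named and, where any was tested, the 2 of smallest p. From the 14 marker lists only sums are given, with examples chosen after their values were seen; likewise for other genes named. Of 212 names 206 matched. Alternatives were other scalings and filters, DESeq2 1.42.0, limma 3.58.1 with voom, replicate blocks, sums per biological replicate, a random effect and the omission of each library.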

Additional observations from a re-analysis of the deposited data

Results flagged for a closer look

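In 40 groups of 4 libraries, each the levels of a named Hox gene or Hox sum in 1 morpholino group, the gap between the most distant library and its nearest neighbour was compared with the range of the group (Dixon's test at the 95% level). Chance alone flags about 1 in 20 such groups, and 2 of 40 stood out. Hoxb5a was at 43.0 CPM in control 2_2, against 37.0 to 37.8 CPM in the other 3 controls (ratio 0.859). Hoxb13a was at 14.03 CPM in control 2_1, against 12.6 to 12.7 CPM in the other controls (ratio 0.95).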

How the results depend on the processing

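No Hox gene was called under any alternative run. The count of called genes over all genes tested was 14, and it became 32 without a low-count filter, 96 with DESeq2, 2 with biological replicate as a random effect, 0 with counts summed per biological replicate, and 0 to 20 when each library was left out (0 without control 1_1 and 0 without either library of LOF-labelled biological replicate 2). With the replicate number as a block it was 0. Libraries of the same number did not deviate together (correlations -0.23 to -0.338). A crossed block by library set, drawn from these same libraries, gave 396, with 4 Hox genes at an unadjusted p under 0.05 (share over all genes not computed) and none called. The cause of these differences was not tested. Without length division the shares were 68.9% anterior, 11.3% central, 19.8% posterior, 10.987% for group 13 and 31.5% for group 3, and by cluster 17.5% for aa, 13.3% for ab, 49.1% for ba, 9.16% for ca and 1.02% for cb. With the hoxa4a row in group 3 those of groups 4 and 3 were 19.1% and 18.6%. The fold change of hoxb3a was -0.0042 with the random effect and -0.014 with summed counts. With each library left out, fold changes near 0 took both signs: hoxa2b -0.24 to 0.032, hoxb3a -0.11 to 0.11, hoxd3a -0.0086 to 0.32, hoxd4a -0.22 to 0.10, hoxb5a -0.094 to 0.25, hoxb8a -0.23 to 0.23, hoxa10b -0.24 to 0.14, hoxa11b -0.071 to 0.20 and hoxc13a -0.032 to 0.33. The log2 ratio of the mean summed Hox level (LOF-labelled to control) was 0.14, and -0.0015 without LOF-labelled 1_1. Hoxd9a stayed below 0 throughout, but its unadjusted p was above 0.05 with summed counts, with the replicate number block, and without control 1_1, 2_1 or 2_2 or either library of LOF-labelled biological replicate 2. Among the 19 members whose fold changes were followed through the alternatives, the other values kept their direction and their side of the adjusted p threshold. The 16 remaining tested members were not followed singly, and not all of them kept their sign. Without LOF-labelled 2_1, 34 of 36 tested members were above 0, against 29 of 35 in the main run. The other shares of regions, clusters and groups 3, 4 and 13 moved by less than 1 SD. Low counts limit the 13 untested members.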
